A study of Mus musculus with 20 samples.

Results

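Cytokeratins of simple, single-layered epithelia were followed through mouse preimplantation development. The genes were Krt8, Krt18, Krt19 and Krt7, and every probe set annotated to 1 of these symbols was taken, which gave 4 genes of 12394 with a symbol, and 6 probe sets of 22690, on the Affymetrix MOE430A array. Krt8 had 3 probe sets (1420647_a_at, 1423691_x_at and 1435989_x_at), and Krt18 (1448169_at), Krt19 (1417156_at) and Krt7 (1423952_a_at) had 1 each. The series holds 20 arrays, with 4 arrays each of the oocyte, the 1-cell embryo, the 2-cell embryo, the 8-cell embryo and the blastocyst. Total RNA of whole oocytes or embryos was amplified by repeated in vitro transcription, and no strain, genotype, treatment, embryo number or collection day is given in the labels. Nothing in the labels says that the 4 arrays of a stage came from separate collections, so the p-values measure only the spread between these arrays, which may be technical.

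Keratins are the intermediate filament proteins of epithelial cells, and they assemble only as pairs of a type I and a type II chain. Krt8 and Krt7 encode type II chains, and Krt18 and Krt19 encode type I chains. In the mouse embryo the Krt8 and Krt18 pair forms the first intermediate filaments, and in the blastocyst these filaments are known from the trophectoderm, the outer epithelium that makes the blastocyst cavity and later the placenta. They attach to desmosomes, the spot-like junctions between neighbouring cells. The RNA here is that of the whole embryo, so a higher share of trophectoderm cells and more keratin RNA per cell cannot be told apart.

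Krt8 and Krt18 are neighbours on mouse chromosome 15, and Krt7 lies in the same keratin cluster. Because these 3 genes rose together, the 250 bases upstream of each start site are shown from RefSeq (build GRCm38.p6), with every match to 7 short motifs in capitals. Promoter sequences were at hand for 3 of the 4 keratins. The Krt8 stretch is chr15:102004343-102004592 on the minus strand, the Krt18 stretch is chr15:102027966-102028215 on the plus strand, and the Krt7 stretch is chr15:101412153-101412402 on the plus strand.
Krt8: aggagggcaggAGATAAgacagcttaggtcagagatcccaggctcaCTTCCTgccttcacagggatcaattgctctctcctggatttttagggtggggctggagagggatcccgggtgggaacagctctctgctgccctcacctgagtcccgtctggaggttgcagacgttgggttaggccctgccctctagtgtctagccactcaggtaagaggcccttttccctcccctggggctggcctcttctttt
Krt18: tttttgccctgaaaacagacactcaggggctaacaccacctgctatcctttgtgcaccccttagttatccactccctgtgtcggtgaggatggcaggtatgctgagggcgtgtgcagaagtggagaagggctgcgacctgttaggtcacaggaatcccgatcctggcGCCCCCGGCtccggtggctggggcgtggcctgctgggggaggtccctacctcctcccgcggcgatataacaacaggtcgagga
Krt7: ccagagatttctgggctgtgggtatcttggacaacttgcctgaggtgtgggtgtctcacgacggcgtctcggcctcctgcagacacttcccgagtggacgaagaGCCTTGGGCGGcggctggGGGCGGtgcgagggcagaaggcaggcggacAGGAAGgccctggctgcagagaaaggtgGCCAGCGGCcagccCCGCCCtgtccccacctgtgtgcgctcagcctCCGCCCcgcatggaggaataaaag
The start sites of Krt8 and Krt18 lie 23874 bases apart, and the genes are read from opposite strands. G and C made up 58.0% of the Krt8 stretch, 60.4% of the Krt18 stretch and 66% of the Krt7 stretch, and the median over 32851 promoters was 52.4%. The motifs were searched on both strands, and the share of all 250-base promoter stretches that hold each is given with it. The TATA box letters TATAAA are in 12.4% of them and the GC box letters GGGCGG in 32.7%. For AP-1 the letters were TGANTCA, which 6.75% hold. TFAP2 factors were searched as GCCNNNGGC (13.7%). The letters for GATA factors were AGATAA (9.99%). TEAD factors were given as GGAATG (12.6%). The ETS letters AGGAAG occur in 29.5% of the stretches. Krt18 held 1 match, to the TFAP2 letters at -83 to -75. Krt8 held 1 GATA match at -239 to -234 and 1 ETS match on the opposite strand at -204 to -199. Krt7 held 2 TFAP2, 4 GC box and 1 ETS match, and its TFAP2 match at -146 to -138 overlapped the GC box match at -141 to -136. No motif had a match in all 3 stretches, and a match is a run of letters, not a measured binding site.

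Krt18, the type I partner of Krt8, was called higher at every step from oocyte to blastocyst, the first of them between readings near background. The deposited values are probe-set intensities on a linear scale, and changes are given as log2(intensity + 12.15), later stage minus earlier stage, with the moderated standard error of limma. In the oocyte the 4 arrays read 6.2, 4.1, 5.1 and 4.3, and in the 1-cell embryo they read 17.5, 22.3, 29.1 and 16.7. These stages did not overlap, but all 8 readings lie under 33, the intensity used as the floor of the filter. The size of a log2 change against a stage whose arrays all lie under this floor is set by the added constant. For several such changes a bound is therefore also given, the geometric mean of the brighter stage over the floor. In the 2-cell embryo the readings were 68.5, 103.8, 68.0 and 53.2, and in the 8-cell embryo they were 222.5, 600.4, 336.8 and 422.3. The blastocyst arrays read 4572.7, 6242.1, 5362.1 and 5205.5, with no overlap between any of the 5 stages. The mean rose from 395.5 ± 159 (SD, n = 4) in the 8-cell embryo to 5346 ± 688 (SD, n = 4) in the blastocyst, a ratio of 13.5.

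The last step of Krt18 was a log2 change of 3.79 ± 0.23 (limma, adjusted p = 6.03e-13). The 2-cell to 8-cell step was 2.20 ± 0.23 (adjusted p = 4.68e-09) and the 1-cell to 2-cell step was 1.33 ± 0.23 (adjusted p = 1.77e-05), at least 2.16-fold against the floor. The first step, from the oocyte to the 1-cell embryo, was 0.96 ± 0.23 (adjusted p = 0.00162). That first call was lost when arrays were scaled to their spiked hybridization controls (0.52, adjusted p = 0.161) and with a larger added constant of 48.6 (0.38, adjusted p = 0.119). From oocyte to blastocyst Krt18 was at least 161-fold higher, against the floor.

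Krt8, the type II partner, was low in the oocyte and the 1-cell embryo and rose most at the step to the blastocyst. Its probe set with the highest mean, 1420647_a_at, read 75.4, 72.6, 48.6 and 38.7 in the oocyte, and 128.6, 41.8, 40.9 and 83.2 in the 1-cell embryo. In the 2-cell embryo it read 102.7, 146.9, 84.8 and 81.8, a range that overlaps that of the 1-cell embryo but lies above that of the oocyte. The 8-cell arrays read 242.4, 452.4, 313.0 and 382.7, and the blastocyst arrays read 4144.3, 4661.3, 4580.4 and 4101.8, each stage above all earlier ones. The mean was 348 ± 90.3 (SD, n = 4) in the 8-cell embryo and 4372 ± 290 (SD, n = 4) in the blastocyst, a ratio of 12.6.

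For this Krt8 probe set neither of the first steps passed the test. The oocyte to 1-cell change was 0.19 ± 0.26 (limma, adjusted p = 0.650) and the 1-cell to 2-cell change was 0.53 ± 0.26 (adjusted p = 0.104). The latter passed without 1-cell replicate 1, the highest of its stage (0.81, adjusted p = 0.00847). The 2-cell to 8-cell change of 1.63 ± 0.26 (adjusted p = 6.60e-06) and the 8-cell to blastocyst change of 3.64 ± 0.26 (adjusted p = 1.49e-11) both passed. Ordered by level, the oocyte and the 1-cell embryo and then the 1-cell and 2-cell embryos do not differ beyond their spread, while the 2-cell embryo exceeded the oocyte by 0.71 ± 0.26 (adjusted p = 0.0260).

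The other Krt8 probe sets, whose suffix marks probes that can also match other transcripts, rose from readings under the filter floor. In the oocyte and the 1-cell embryo 1423691_x_at read 3.1 to 12.5 and 1435989_x_at read 3.6 to 7.5, on all 8 arrays. The first of them read 14.2 to 53.8 in the 2-cell embryo, 204.7 to 394.0 in the 8-cell embryo and 2971.8 to 4242.3 in the blastocyst. For 1435989_x_at these ranges were 10.2 to 28.8, 140.7 to 280.3 and 3725.8 to 4567.8. Between the 2-cell and 8-cell stages both were called higher (limma, adjusted p = 1.30e-10 and 1.03e-11). In the 2-cell embryo 1 of 4 arrays of 1423691_x_at and 0 of 4 of 1435989_x_at read above the floor, so the sizes of these changes are not compared with that of 1420647_a_at, and 1435989_x_at was at least 6.08-fold higher against the floor. Both also passed from the 1-cell to the 2-cell stage (adjusted p = 0.000519 and 0.00775), between readings of which 1 lies above the floor. At the last step 1423691_x_at rose by 3.54 ± 0.25 and 1435989_x_at by 4.29 ± 0.22. From oocyte to blastocyst 1420647_a_at, above the floor on all 20 arrays, changed by 5.98 ± 0.26. Against the floor 1423691_x_at was at least 107-fold and 1435989_x_at at least 126-fold higher, and bounds of this kind do not say whether the probe sets rose by different amounts.

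**Figure D1:**
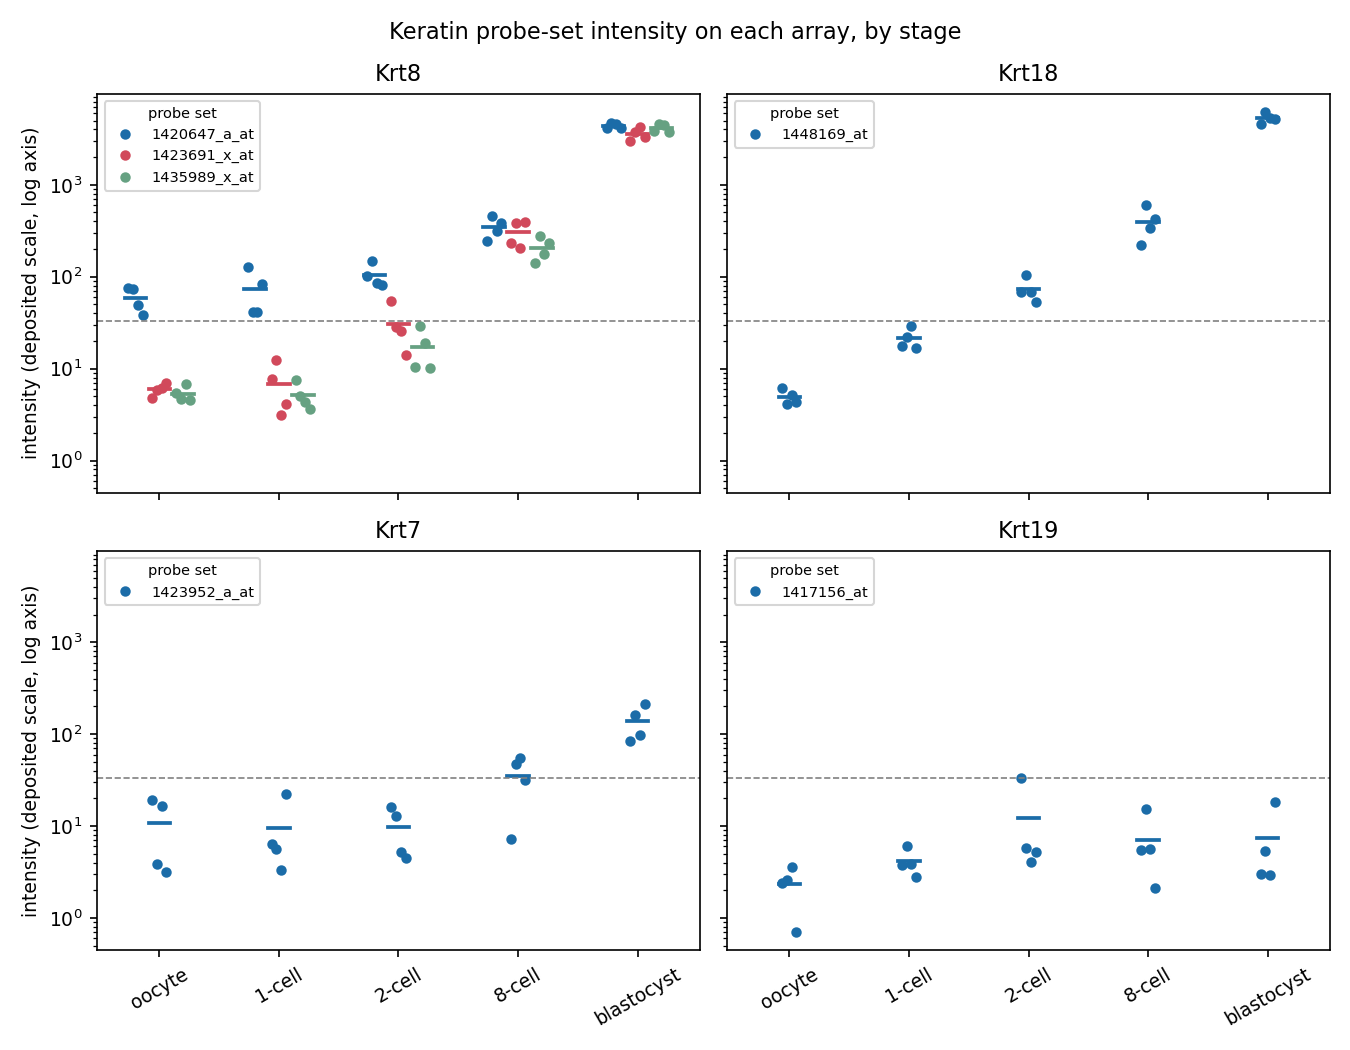
Intensity of each keratin probe set on each of the 20 arrays, on a log axis, by stage; points are arrays, short bars are means of 4 arrays, and the dashed line is the filter floor of 33. Krt8 and Krt18 stand between 2971.8 and 6242.1 in the blastocyst, Krt7 between 85.0 and 214.2, and Krt19 passes the dashed line on 1 array of 20.

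Krt7, a type II keratin of glandular and ductal epithelia, rose from readings under the filter floor at the last steps. It read 19.3, 3.9, 16.6 and 3.2 in the oocyte, 6.4, 5.6, 3.3 and 22.5 in the 1-cell embryo, and 16.3, 12.9, 5.2 and 4.5 in the 2-cell embryo. All 12 of these readings lie under the filter floor and the stages overlap. The 8-cell arrays read 7.2, 46.9, 55.4 and 32.1, of which replicate 1 lies within the range of the earlier stages. In the blastocyst the readings were 85.0, 161.5, 97.3 and 214.2, all above every earlier reading.

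The mean of Krt7 was 35.4 ± 21.1 (SD, n = 4) in the 8-cell embryo and 139.5 ± 60.04 (SD, n = 4) in the blastocyst, a ratio of 3.94. That step was a log2 change of 1.73 ± 0.37 (limma, adjusted p = 0.000428). The 2-cell to 8-cell change was 1.01 ± 0.37 (limma, adjusted p = 0.0242), a size set by the added constant, since all 2-cell readings lie under the floor. No bound can be given for it, because the geometric mean of the 8-cell stage does not exceed the floor. That earlier call was lost without 8-cell replicate 2 (0.86, adjusted p = 0.0801), 8-cell replicate 3 (0.80, adjusted p = 0.0993), 2-cell replicate 3 (0.91, adjusted p = 0.0647) or 2-cell replicate 4 (0.89, adjusted p = 0.0702), and under scaling to the hybridization controls (0.62, adjusted p = 0.216). The oocyte, 1-cell and 2-cell stages do not differ beyond their spread, with changes of -0.08 ± 0.37 (adjusted p = 0.899) and 0.06 ± 0.37 (adjusted p = 0.922).

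Krt19, a type I keratin that lacks most of the usual tail domain, gave no signal above the filter floor on 19 of 20 arrays. It read 2.4, 2.6, 3.6 and 0.7 in the oocyte, 3.8, 6.1, 3.9 and 2.8 in the 1-cell embryo, and 33.7, 5.7, 4.1 and 5.2 in the 2-cell embryo. The 8-cell arrays read 5.5, 15.3, 5.6 and 2.1, and the blastocyst arrays read 3.0, 5.4, 2.9 and 18.1. Only 2-cell replicate 1 passed 33, and the blastocyst arrays overlap those of the oocyte, 1-cell, 2-cell and 8-cell stages. Krt19 was therefore not among the probe sets tested. In a fit of all 22626 probe sets without the filter, its changes over the 10 pairs of stages had limma adjusted p-values from 0.0874 to 0.992, and that of the last step was -0.0044 ± 0.27. With 1 dim probe set, Krt19 RNA at these stages was not detectable here, which does not show that it is absent.

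Of the 6 keratin probe sets 5 passed the filter and were tested. From oocyte to 1-cell embryo 1 of the 5 was called higher, against 16.1% of all tested probe sets called higher. At the 1-cell to 2-cell step 3 of 5 were called higher (all tested probe sets, 23.2%), and at the 2-cell to 8-cell step 5 of 5 (all tested probe sets, 23.2%). From the 8-cell embryo to the blastocyst 5 of 5 were called higher (all tested probe sets, 19.5%), and from oocyte to blastocyst 5 of 5 (all tested probe sets, 28.5%). The stages did not overlap for all 5 at the 8-cell to blastocyst step, which holds for 17.3% of all tested probe sets in the same direction. Krt18, Krt7 and the 2 dimmer Krt8 probe sets, with 6 to 12 of 20 arrays above the floor, passed the filter only through the stages where they are high, so these counts describe the probe sets and lend no support to the rise.

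**Figure D2:**
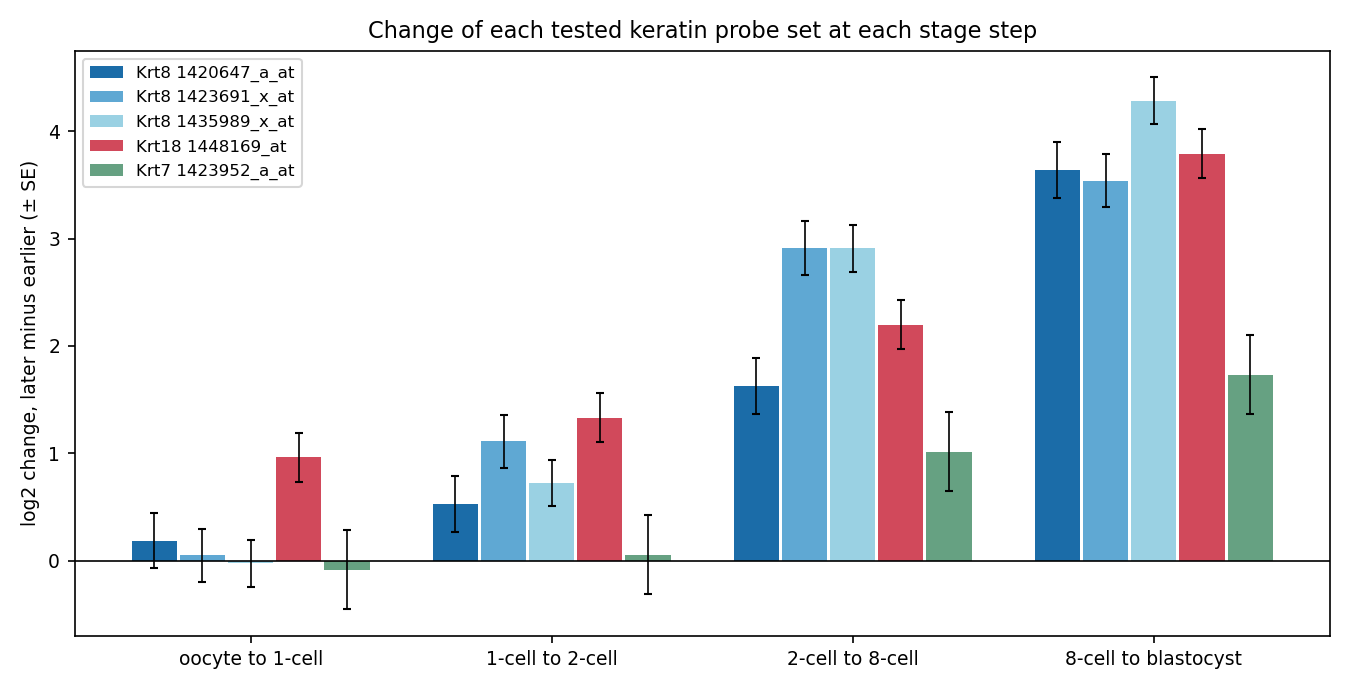
Log2 change of the 5 tested keratin probe sets at each of the 4 steps between stages, later minus earlier; bars start at 0 and error bars are moderated standard errors. At the last step the changes run from 1.73 for Krt7 to 4.29 for 1 of the Krt8 probe sets, and bars against stages under the filter floor depend in size on the added constant.

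Because a type II chain needs a type I partner, the change of Krt8 minus Krt18 within each array was examined; only its change between stages can be read, since levels of different probe sets cannot be set against each other. Only the 2-cell, 8-cell and blastocyst stages are read, since all 8 Krt18 readings of the oocyte and the 1-cell embryo lie under the filter floor. With 1420647_a_at the difference was 0.44 ± 0.11 (SD, n = 4) in the 2-cell embryo, -0.13 ± 0.21 in the 8-cell embryo and -0.28 ± 0.12 in the blastocyst. Its shift of -0.57 from the 2-cell to the 8-cell stage, with no overlap between the stages, had the smallest exact two-sided permutation p that 4 against 4 arrays allow, 0.0286, and did not pass when adjusted over 12 comparisons (0.0686). The shift of -0.15 to the blastocyst had an exact p of 0.229 (adjusted 0.274). The other Krt8 probe sets can be read at the last step alone, because their 2-cell readings are at or under the floor. There the difference moved by -0.25 with 1423691_x_at (exact p = 0.286, adjusted 0.343) and by 0.49 with 1435989_x_at (exact p = 0.0286, adjusted 0.0381). The sign at the last step was thus not the same for all 3 probe sets. The adjusted value of 0.0381 is not read as passing, since its exact p is again the smallest possible. Its size depends on how many of the 12 comparisons reach that p, and some of these involve a stage under the floor. In the blastocyst the difference had SDs of 0.12, 0.18 and 0.13 for the 3 probe sets (n = 4). With 1420647_a_at the 2-cell SD was as small, 0.11. The log2 values of the single probe sets also varied little in the blastocyst, with SDs of 0.095, 0.22 and 0.15 for Krt8 and 0.18 for Krt18. The small SDs of the difference therefore do not show that the 2 genes were held in balance.

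At the last step the difference Krt7 minus Krt8 moved by -1.91 with 1420647_a_at (exact permutation p = 0.0286, adjusted over 12 comparisons 0.0686). It moved by -1.81 with 1423691_x_at (adjusted 0.0490) and by -2.55 with 1435989_x_at (adjusted 0.0381). At this step 2 of 4 Krt7 readings of the 8-cell embryo lie above the floor. The exact p was the smallest possible with all 3 probe sets. The adjusted values differ only with how many of the 12 comparisons reached it, some with a stage under the floor. They are not read as a difference in evidence between the probe sets. Krt19 minus Krt18 moved by -3.80 (exact p = 0.0286, adjusted 0.0686), which restates the rise of Krt18 beside a Krt19 signal under the floor. With the brightest Krt8 probe set 0 of the 12 comparisons passed after adjustment, and 5 had an unadjusted exact p of 0.0286, the smallest possible. With 5 at that p the adjusted value is 0.0686, however large the shift. That none passed therefore does not show that the keratins changed by equal amounts.

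**Figure D3:**
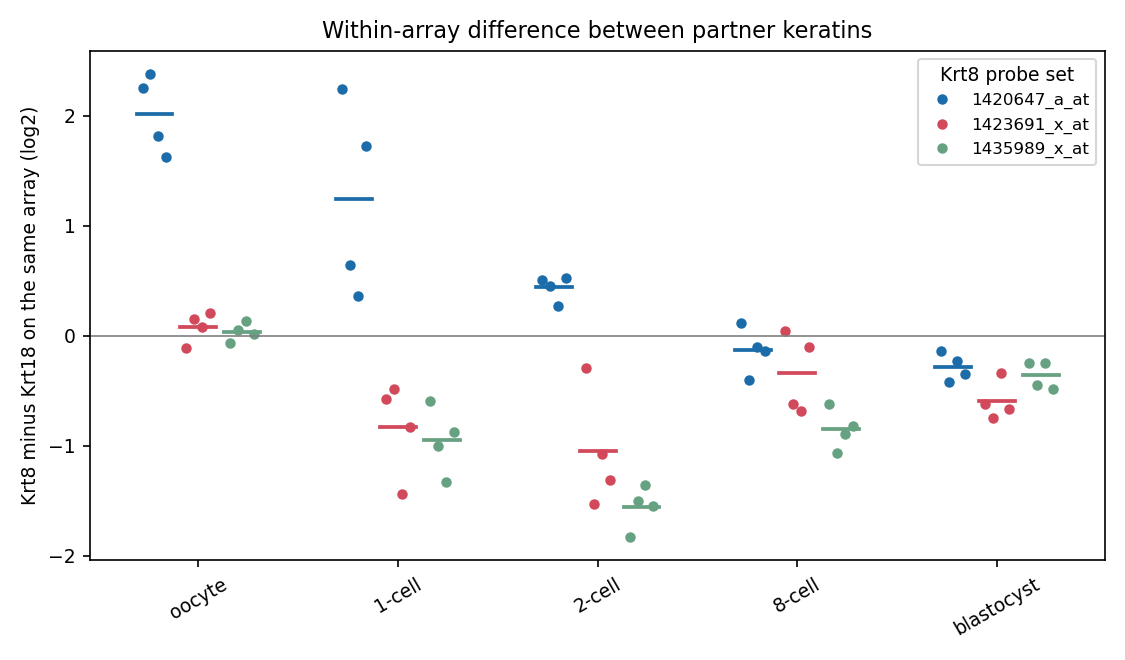
Krt8 minus Krt18, as the difference of log2(intensity + 12.15) on the same array, by stage and by Krt8 probe set; points are arrays and bars are means of 4. The blue points (1420647_a_at) go from a mean of 0.44 in the 2-cell embryo to -0.28 in the blastocyst, and the oocyte and 1-cell points rest on Krt18 readings under the filter floor.

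One 8-cell array stands apart beside these results. Ovgp1, the oviduct glycoprotein gene, read 3105.4 on 8-cell replicate 2 against 46.5 to 193.5 on the other 8-cell arrays, 219.6 to 764.6 in the 2-cell embryo and 24.4 to 56.5 in the blastocyst. The same array had the highest 8-cell readings of Krt8 probe sets 1420647_a_at and 1435989_x_at and of Krt18. Without it the 8-cell means were 313 ± 70.2 for Krt8, 327 ± 100 for Krt18 and 31.6 ± 24.1 for Krt7 (SD, n = 3). The changes to the blastocyst were then 3.78 for Krt8, 4.02 for Krt18 and 1.89 for Krt7 (limma, adjusted p = 5.86e-11, 3.53e-13 and 0.000470), as large as with it or larger. From the 2-cell stage to the 8-cell stage the changes without it were 1.49 for Krt8 (adjusted p = 6.68e-05) and 1.98 for Krt18 (adjusted p = 3.54e-08). Krt7 changed by 0.86 at that step and was no longer called higher (limma, adjusted p = 0.0801).

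The summed signal of marker genes of other cells that could cling to an embryo was taken on the deposited scale only. On this scale it was not higher on the blastocyst arrays, where the keratins were high, than on the 8-cell arrays. Inner cell mass genes, which belong to the embryo itself, were the exception. The order of these stages was not examined under the other scalings. The spiked hybridization controls had a mean log2 value of 10.5 on the 8-cell arrays and 9.40 on the blastocyst arrays. At the 2-cell to 8-cell step, where Krt8 and Krt18 also rose, several of these sums were higher at the later stage, and their part in the result was not tested. Of 13 listed cumulus and granulosa genes 10 are on the array, and their summed intensity was 495.5 to 675 on the 2-cell arrays, 1132 to 1763 on the 8-cell arrays and 414 to 692 on the blastocyst arrays. The 8-cell sum is mainly Nr5a2, a gene that embryos also express, with a mean of 1082. Oviduct epithelium genes (7 of 9 on the array, Ovgp1 and Krt5 among them) summed to 408 to 971 in the 2-cell embryo, to 200 to 3313 in the 8-cell embryo and to 157 to 204 in the blastocyst, and Muc1, an epithelial surface mucin, read 1.1 to 6.3 on all 20 arrays. Over the 2-cell, 8-cell and blastocyst stages in order, blood genes (4 of 6) summed to 96.7 to 118.5, 95.1 to 178 and 97.0 to 128, and sperm genes (6 of 6) to 71.7 to 149, 121 to 226 and 69.5 to 152. Oocyte genes such as the zona pellucida genes (7 of 7) fell from sums of 24387 to 28264 in the oocyte to 159 to 212 in the blastocyst. Inner cell mass genes (5 of 5) summed to 533 to 662 in the 2-cell embryo, 1184 to 1578 in the 8-cell embryo and 1298 to 2020 in the blastocyst, and primitive endoderm genes (5 of 5) to 314 to 331, 1052 to 1492 and 842.5 to 1243. The actin 3′ to 5′ signal ratio, a sign of RNA or amplification length, did move with the keratins, from 4.63 ± 0.622 in the 2-cell embryo and 3.67 ± 0.234 (SD, n = 4) in the 8-cell embryo to 1.99 ± 0.325 in the blastocyst, and its part in the rise was not tested.

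The other keratin genes made up a larger group, few of which rose. The array holds 36 more genes whose symbol is Krt and a number, on 43 probe sets, and 13 of these probe sets stayed under the filter floor on all arrays. Of the 25 genes tested, 1 was called higher and 13 lower from the 8-cell embryo to the blastocyst, beside 2051 higher and 2710 lower of all 10251 genes tested. The gene called higher was Krt88, with 7.90 ± 1.81 in the 8-cell embryo and 60.9 ± 20.1 (SD, n = 4) in the blastocyst (limma, adjusted p = 2.04e-06), at least 1.76-fold higher against the floor. The falls depend on the scaling of the arrays: 9 were called after quantile normalization, 5 after centring on the array median and 0 after scaling to the hybridization controls, and the median change was -0.66, -0.48, -0.44 and 0.23 in that order. The median of all genes tested moved as well, from -0.22 on the deposited scale to -0.11, 0.01 and 0.67. After centring 2541 of these genes were higher and 1522 lower, and 4685 were higher and 205 lower with the hybridization controls.

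Krt6b, Krt81 and Krt25 were among the genes called lower on the deposited scale (limma, adjusted p = 0.00870, 0.000752 and 0.00256). Krt81 changed by -0.98 ± 0.22, from 217 to 105. Krt6b went from 58.6 to 19.3, at least 1.63-fold lower against the floor, and all 8 Krt25 readings at these stages lie under the floor, so no size is given. For Krt81 the direction turned under the hybridization controls (0.05). Krt12, known as a keratin of the corneal epithelium, had the opposite course to Krt8 and Krt18. Its mean was 668 ± 122 in the oocyte, 443 ± 40.9 in the 1-cell embryo, 202 ± 68.8 in the 2-cell embryo, 45.0 ± 9.64 in the 8-cell embryo and 20.5 ± 3.02 in the blastocyst (SD, n = 4), lower from first to last (limma, adjusted p = 3.56e-16), with all blastocyst readings under the floor. No other keratin outside Krt8, Krt18 and Krt7 had a blastocyst mean over 105, that of Krt81.

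Krt8, Krt18 and Krt7 lie in the type II keratin cluster of chromosome 15, in which Krt18 is the type I member at the edge. In RefSeq's order the cluster runs over 26 protein-coding Krt genes from Krt80 to Krt18, of which 21 are on the array and 19 were tested. From the 8-cell embryo to the blastocyst 4 were called higher, namely Krt7, Krt88, Krt8 and Krt18, and 9 lower, with the same dependence of the falls on scaling. Over all genes tested 20.01% were called higher and 26.4% lower at this step, so the share of the cluster called higher, 4 of 19 genes, is near that of all genes. Krt8 and Krt18 are next to each other at the end of the cluster, and Krt7 and Krt88 lie near the other end with Krt87, which is not on the array, between them. Beyond Krt18 follows Eif4b, a translation initiation factor gene, which fell from 561 to 190 (-1.54 ± 0.25, limma, adjusted p = 1.28e-05).

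**Figure D4:**
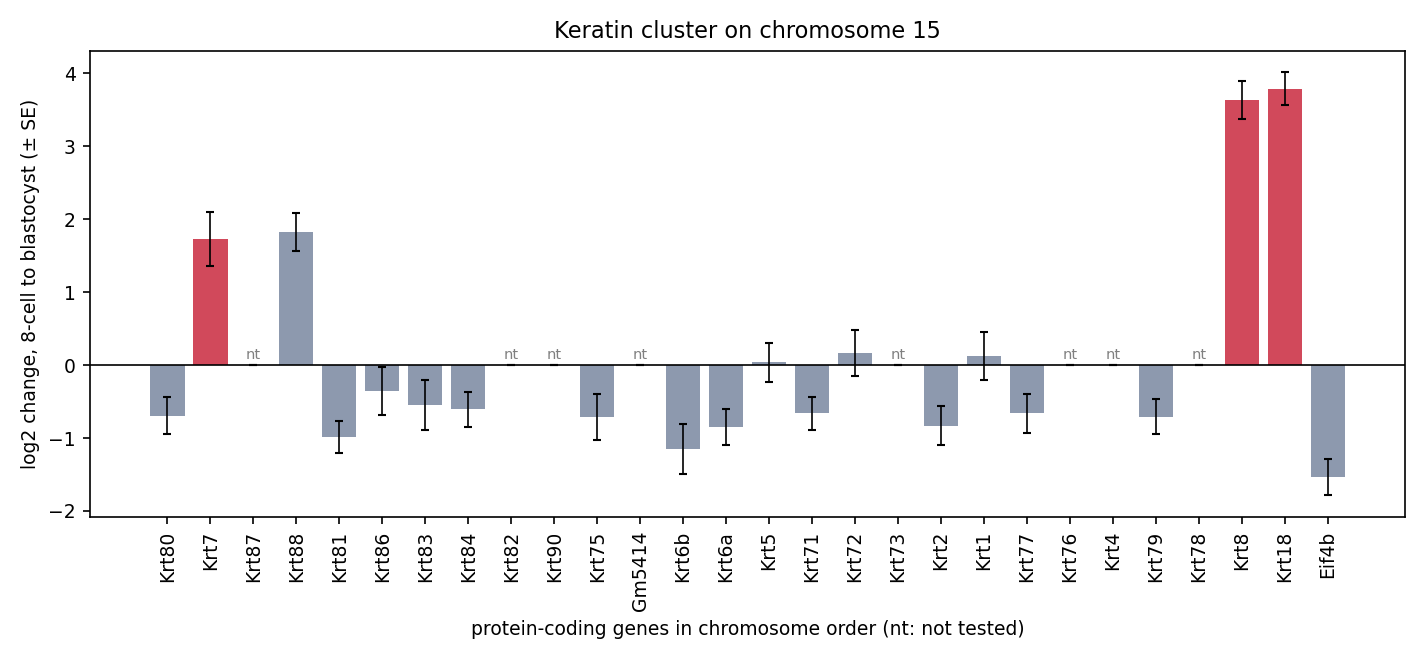
Log2 change from the 8-cell embryo to the blastocyst of the protein-coding genes of the chromosome 15 keratin cluster, in chromosome order and without distances, with Eif4b as the flanking gene; bars start at 0, error bars are moderated standard errors, red marks the simple epithelial keratins and nt marks genes not tested. Krt8 (3.64) and Krt18 (3.79) stand at the end of the cluster, and Krt7 (1.73) and Krt88 (1.83) near its start.

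Genes of the structures to which keratin filaments attach were taken from a list of 20 desmosome, hemidesmosome and linker genes, 16 of them tested. From the 8-cell embryo to the blastocyst 7 of 16 were called higher and 1 lower, beside 20.01% and 26.4% of all genes tested, with a median change of 0.25 beside -0.22. Under the other scalings 8 to 10 were called higher and 0 or 1 lower. Desmoplakin (Dsp), which links keratin filaments to the desmosome, had a mean of 36.8 ± 8.79 in the 2-cell embryo, 125 ± 45.8 in the 8-cell embryo and 1306 ± 223 in the blastocyst (SD, n = 4). Its changes were 1.43 ± 0.27 and then 3.32 ± 0.27 (limma, adjusted p = 6.06e-05 and 1.41e-10). The desmosomal cadherins Dsg2 and Dsc2 rose at the last step by 3.57 ± 0.28 and 3.49 ± 0.27 (adjusted p = 9.58e-11 and 7.42e-11), Dsg2 from 53.9 ± 10.9 to 790 ± 242 and Dsc2 from 11.8 ± 15.8 to 225 ± 29.9. Only 1 of the 8-cell arrays of Dsc2 read above the floor, so the size of its change depends on the added constant.

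The armadillo proteins of the desmosome did not all move alike. Pkp2, a plakophilin, rose from 71.8 ± 34.0 to 494.5 ± 103 (2.65 ± 0.23), and Pkp4 by 1.26 ± 0.19 after a change of -2.47 ± 0.19 at the 2-cell to 8-cell step. Plakoglobin (Jup), which binds desmosomal cadherins, read 31.8 ± 14.8 and then 46.7 ± 14.3, which differed by 0.46 ± 0.29 (not called, adjusted p = 0.202) and was called higher under the other 3 scalings. E-cadherin (Cdh1), the adherens junction cadherin of compaction, rose by 2.03 ± 0.21 from the 2-cell to the 8-cell stage and by 0.97 ± 0.21 to the blastocyst (adjusted p = 3.74e-09 and 0.000482). Itga6, an integrin chain of hemidesmosomes, rose by 1.33 ± 0.23 at the last step after changes of -1.62 and -1.03 at the steps before it, and was lower in the blastocyst than in the oocyte (-0.98 ± 0.23, adjusted p = 0.000450). Plectin (Plec), a linker of intermediate filaments, was the 1 gene called lower (-0.83 ± 0.22, adjusted p = 0.00289), with the opposite sign under the hybridization controls (0.18). At the 2-cell to 8-cell step the list had 3 genes of 16 higher and 5 lower, beside 22.2% and 25.7% of all genes tested, with a median of -0.02 beside 0.04, so its counts are near those of all genes. Plec was called higher there (0.70 ± 0.22), and Dst, a linker gene of hemidesmosomes, was called lower (-0.93 ± 0.28).

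**Figure D5:**
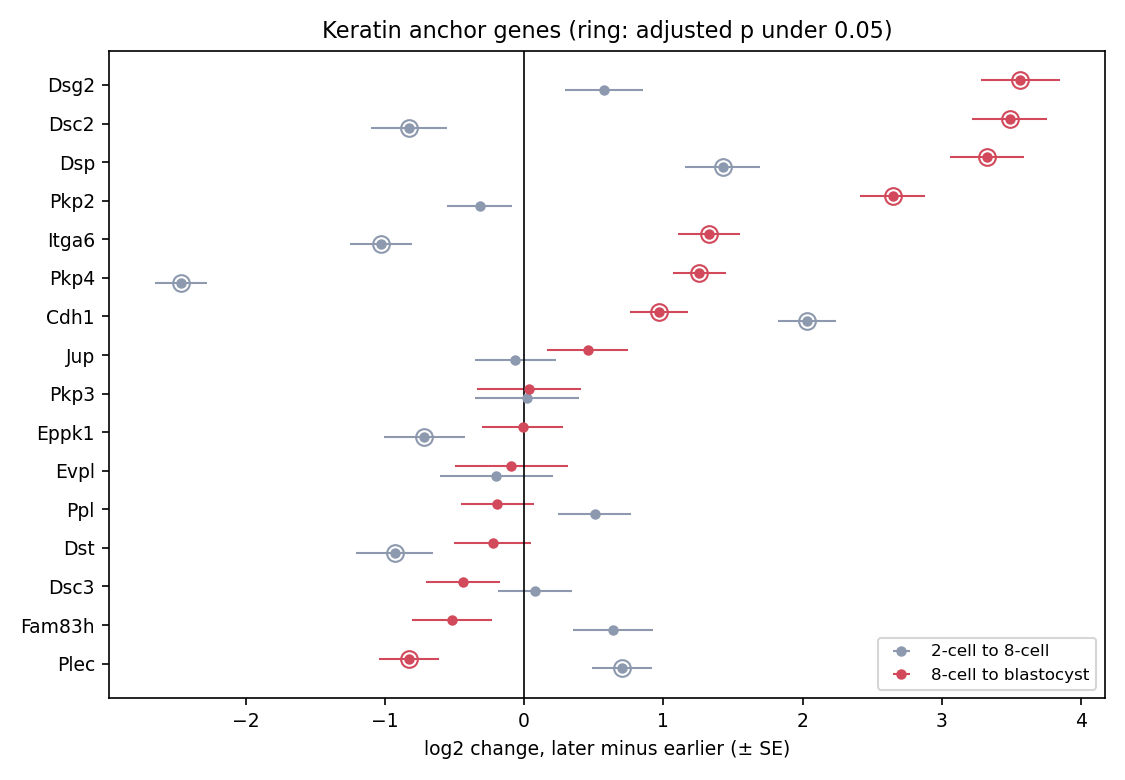
Log2 changes of the 16 tested genes of keratin attachment sites from the 2-cell to the 8-cell stage (grey) and from the 8-cell stage to the blastocyst (red), with moderated standard errors; rings mark adjusted p under 0.05. Dsg2, Dsc2 and Dsp lie farthest right at the later step, between 3.32 and 3.57, and Plec is the 1 ringed red point left of 0. The position of Dsc2 depends on the added constant, since its 8-cell readings are mostly under the filter floor.

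Of 11 other intermediate filament genes tested, 3 were called higher and 4 lower at the last step, beside 20.01% and 26.4% of all genes tested (median -0.18 beside -0.22), which is near the general share. The nuclear lamina gene Lmna rose from 65.0 ± 18.96 to 235.5 ± 26.0 (1.71 ± 0.20, limma, adjusted p = 7.24e-08), and Lmnb2 and Nefl, a neurofilament gene, rose by 0.88 ± 0.32 and 1.09 ± 0.33. Vimentin (Vim), the filament of mesenchymal cells, had means of 15 ± 6.68, 74.4 ± 85.7 and 46.2 ± 16.9 in the 2-cell, 8-cell and blastocyst stages. It changed by 1.28 ± 0.42 (limma, adjusted p = 0.0128) and then by -0.19 ± 0.42 (adjusted p = 0.730). All its 2-cell readings lie under the floor, against which the first change was at least 1.48-fold. Its 8-cell SD exceeds its 8-cell mean, so the arrays of that stage differed widely. The genes called lower were Ina, Prph, Des and Nes, with changes from -1.05 to -0.66. For Des and Nes the sign turned under the hybridization controls (0.19 and 0.35).

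Genes whose products bind, modify, fold or cleave keratins made up a list of 23, with 16 on the array and all of these tested. From the 2-cell to the 8-cell stage 7 were called higher and 3 lower (median 0.56, beside 0.04 over all genes), where 22.2% of all genes tested were higher and 25.7% lower. From the 8-cell stage to the blastocyst 5 were higher and 4 lower (median -0.11), near the 20.01% and 26.4% of all genes. Sfn, the epithelial 14-3-3 protein, went from 5 ± 3.88 to 198 ± 64.9 at the earlier step (limma, adjusted p = 1.88e-08), at least 5.73-fold against the floor, and the keratin-cleaving caspase gene Casp6 from 82.0 ± 8.54 to 685 ± 223 (2.83 ± 0.28). The chaperone gene Hspa8 rose by 3.13 ± 0.23 to a mean of 14094 ± 1865, then fell by 0.97 on the log2 scale. The largest fall of the list at the last step was that of Dnajb6, a chaperone gene, from 6981 ± 332 to 2532 ± 87.2 (-1.46 ± 0.16, limma, adjusted p = 2.28e-08). Sfn fell by 1.16 and Tgm2 by 0.75. All blastocyst readings of Tgm2 lie under the floor, and it was at least 1.57-fold lower against it. Under the hybridization controls none of these 4 falls was called, with changes of 0.14 for Hspa8, -0.35 for Dnajb6, -0.15 for Sfn and 0.09 for Tgm2. Mapk8, Ywhaz and Mapk14, kinase and 14-3-3 genes, had the largest falls from the 2-cell to the 8-cell stage, -2.63 ± 0.17, -1.90 ± 0.25 and -1.76 ± 0.18. Of these Mapk14 and Ywhaz rose again at the last step, by 1.45 ± 0.18 and 1.18 ± 0.25, as did Tradd, which codes for a death receptor adaptor known to bind Krt18 (1.20 ± 0.25).

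Among 21 tested transcription factors known to act on Krt8 and Krt18 or in trophectoderm, 6 were called higher and 2 lower from the 2-cell to the 8-cell stage, and 11 higher and 4 lower from the 8-cell stage to the blastocyst (medians 0.33 and 0.58, beside 0.04 and -0.22 over all genes). Of all genes tested 22.2% were higher and 25.7% lower at the earlier step, which is near the share of factors called higher there, and 20.01% and 26.4% at the later one. Cdx2, a factor that specifies trophectoderm, had means of 12.2 ± 2.25, 131 ± 84.1 and 449 ± 58.7 at these 3 stages, with a rise at the earlier step from readings all under the floor (limma, adjusted p = 1.50e-06) and a change of 1.95 ± 0.33 at the later one (adjusted p = 3.00e-05). Krt8 and Krt18 rose at both of these steps too, and a link between them and Cdx2 was not tested. Elf5, Gata3 and Eomes, also trophectoderm factors, changed by -0.08, -0.08 and 0.45 at the earlier step, where none passed, and rose at the later one, Eomes by 2.80 ± 0.23, Gata3 from 13.5 ± 15.7 to 232 ± 60.8, and Elf5 at least 8.19-fold against the floor. Klf5 rose by 2.11 ± 0.22 and then by 0.58 ± 0.22.

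Tfap2c, an AP-2 factor of trophectoderm, rose to the 8-cell stage and then fell. Its mean was 275 ± 44.9 in the 2-cell embryo, 854 ± 234 in the 8-cell embryo and 439.5 ± 107 in the blastocyst, with changes of 1.57 ± 0.23 and -0.94 ± 0.23 (limma, adjusted p = 1.35e-06 and 0.00148). The fall of Tfap2c turned under the hybridization controls (0.14). Tead4, which acts upstream of Cdx2, rose by 1.59 ± 0.24 and then changed by -1.87 ± 0.24, a fall called under all 4 scalings. Ovol1 fell by 0.80 on the log2 scale at the last step, and Yap1, the coactivator of Tead4, changed by -2.24 ± 0.16 at the earlier step and -0.07 ± 0.16 at the later one. Grhl1 fell by 1.45 at the earlier step and rose by 1.33 at the later one.

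Of 22 tested trophectoderm markers 18 were called higher and 2 lower from the 8-cell embryo to the blastocyst, beside 20.01% and 26.4% of all genes tested, with a median of 2.05 on the deposited scale and 1.99 to 2.99 under the other scalings. At the 2-cell to 8-cell step 10 were higher and 0 lower (limma, median 0.58), beside 22.2% and 25.7% of all genes tested. Adh1, Id2 and Fabp3 had the largest rises, 5.66 ± 0.35, 4.82 ± 0.39 and 4.16 ± 0.22. Their means went from 52.9 ± 4.48 to 3673 ± 1895, from 44.6 ± 56.5 to 1235 ± 450 and from 171 ± 22.5 to 3284 ± 706 (SD, n = 4). The glycerol and water channel gene Aqp3 and the tight junction gene Cldn7 rose at the 8-cell stage, by 3.01 ± 0.24 and 2.89 ± 0.24, and Fabp3 rose there at least 5.14-fold against the floor. Aqp3 then changed by 0.16 ± 0.24 (adjusted p = 0.602). The markers called lower at the last step were Hand1 (-1.18 ± 0.30) and Tfap2c, and neither was called lower under the hybridization controls. This list was compiled as markers of the tissue in which Krt8 and Krt18 are known, so its count is no independent evidence. It was also chosen with earlier results of these data known, so members may be on it because they are high in these blastocyst arrays. Cdx2, Gata2, Gata3, Tfap2c, Eomes and Elf5 are also on the list of transcription factors, so the counts of these lists are not separate results.

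The genes whose course over the 20 arrays was most like each keratin were found by Pearson's r of the log2 values among 10223 genes. These coefficients are descriptions without a test, since the arrays of a stage share its mean and any gene that rises late gives a high r. For Krt8 they were Asns (0.988), Tmem62 (0.987), Fabp3 (0.985), Mtfp1 (0.981) and Cyb5r1 (0.979). Asns, the asparagine synthetase gene, had a mean of 171 in the 8-cell embryo and 781 in the blastocyst. For Krt18 they were Slc2a3 (0.978), Myl12b (0.977), Atxn10 (0.974), Tfcp2l1 (0.973) and Tagln2 (0.973). Slc2a3, a glucose transporter gene, rose already at the 1-cell to 2-cell step, with means of 38.4, 45.0, 191, 379 and 3673 over the 5 stages in order. For Krt7 they were Csf3r (0.938), Oxsr1 (0.938), Capg (0.935), Dmkn (0.929) and Eomes (0.929). Among the keratins r was 0.971 between Krt18 and the brightest Krt8 probe set, 0.917 between Krt7 and that probe set, and 0.163 to 0.263 between Krt19 and the other representative probe sets.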

How the data were processed

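Each of the 20 arrays came with 1 column of linear probe-set intensity, deposited by the authors and scaled by them to a common trimmed mean (150.05 to 150.08 on each array after 2% was cut from either tail). Which program, background correction and detection calls lie behind them, and where the probes sit, is not given in the sources used here. Stages come from the titles. No 2 arrays of 190 pairs were identical (0 pairs). The number of arrays, 4 a stage, limits the precision.

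Of 22690 probe sets, 64 controls were left out. Genes were named from the platform annotation given with the series (1 symbol for 20380 probe sets, several for 691, none for 1555), and 20364 matched RefSeq by Entrez ID. Deposited intensities were turned into log2(intensity + 12.15), a constant equal to the pooled median of 48.6 divided by 4. It understates changes of dim probe sets. For part of the changes against stages wholly under the filter floor, bounds against that floor are given. Other log2 sizes against such stages depend on the constant. The filter kept 17193 probe sets that exceeded 33, the 40th percentile over all arrays, in 4 arrays or more. One limma model (R 4.3.3, limma 3.58.1) with a mean per stage (15 residual degrees of freedom) and an intensity trend gave two-sided moderated tests, called at a Benjamini-Hochberg adjusted p under 0.05 within each comparison. The probe set with the highest mean log2 value stands for a gene. Within-array differences were compared by exact two-sided permutation of arrays, 4 against 4 (SciPy 1.17.1). Procedures were tested on simulated data.

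The keratins, gene lists and tests were chosen with earlier results of these data known. Text names all keratin probe sets, list genes led by the up to 3 called ones with the largest rise and fall at the step described, and Cdx2, Gata3, Tfap2c, Dsp, Jup, Vim and Cdh1. Other called list genes were named after their values were seen, and so were Ovgp1, Eif4b and Krt12. The replicate numbers of the titles did not pair the arrays: over 40 same-numbered pairs the correlation of deviations was -0.161 to 0.178. Alternatives were 3 other scalings (quantile, array median, hybridization controls), added constants of 3.04 and 48.6, dropping the filter or raising it to 71.8 (60th percentile), asking for a 2-fold change, no trend, only the compared stages, a replicate block, other Krt8 probe sets or their mean, and leaving out each array.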

Additional observations from a re-analysis of the deposited data

Results flagged for a closer look

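In 4 of 45 groups of 4 arrays that were looked at, 1 array lay far from the other 3 (its gap to the nearest array over the range of the group exceeded 0.829). Chance alone marks about 1 in 20 such groups. Krt19 read 33.7 on 2-cell replicate 1, against 4.1 to 5.7 on the other 2-cell arrays. Krt19 also read 18.1 on blastocyst replicate 4, against 2.9 to 5.4 on the other blastocyst arrays. Krt7 read 22.5 on 1-cell replicate 4, against 3.3 to 6.4 on the other 1-cell arrays. The within-array difference Krt19 minus Krt18 was -1.36 on 1-cell replicate 3, against -0.95 to -0.89 on the others, where Krt18 read 29.1 on that array. Of the 3 intensities only that of Krt19 in the 2-cell embryo exceeds the filter floor of 33, and none of these arrays decides a keratin call.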

How the results depend on the processing

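Every call of Krt8 and Krt18 from the 2-cell to the 8-cell stage and later, and of Krt7 from the 8-cell stage to the blastocyst, kept its direction and its side of the threshold under each alternative run. Over these alternatives the 8-cell to blastocyst change was 3.48 to 4.72 for Krt8, 3.56 to 4.87 for Krt18 and 1.15 to 2.54 for Krt7. Under the hybridization controls 0 keratin probe sets were called from oocyte to 1-cell, and the changes there were -0.71 for Krt8 (adjusted p = 0.0626), 0.52 for Krt18 (0.161), -0.33 for 1423691_x_at and 0.14 for Krt7 minus Krt8, while Krt7 from 2-cell to 8-cell was 0.62 (0.216). With the constant of 48.6 the oocyte to 1-cell step had 0 keratin calls and 0.38 for Krt18. A 2-fold threshold, stricter by construction, left 2420, 4675, 5064 and 3439 probe sets at the 4 steps in place of 5400, 7693, 8326 and 7739, and 0 keratin calls from oocyte to 1-cell, where Krt18 changed by 0.96. Centring gave -0.054 for Krt7 from 1-cell to 2-cell and -0.012 for 1423691_x_at from oocyte to 1-cell, which was -0.030 after quantile normalization. The mean of the Krt8 probe sets gave 0.79 from 1-cell to 2-cell (adjusted p = 0.00256). With 1423691_x_at for Krt8, Krt8 minus Krt18 moved by -0.91 (oocyte to 1-cell) and 0.71 (2-cell to 8-cell), and Krt7 minus Krt8 by -1.05, -1.90 and -1.81 from the 1-cell stage on. With 1435989_x_at, Krt8 minus Krt18 moved by -0.99, -0.61, 0.71 and 0.49 at the 4 steps, and Krt7 minus Krt8 by -1.90 and -2.55 at the last steps. Shifts of these differences that involve a stage under the filter floor are not read as a change of balance. Apart from the 2-fold threshold, the cause of these shifts was not tested. Leaving out 1 array, Krt7 ranged from -0.34 to 0.093 (oocyte to 1-cell), -0.083 to 0.31 (1-cell to 2-cell) and 0.80 to 1.40 (2-cell to 8-cell), and Krt8 from -0.093 to 0.38 (oocyte to 1-cell) and 0.34 to 0.81 (1-cell to 2-cell). From oocyte to 1-cell 1435989_x_at ranged from -0.088 to 0.018 and 1423691_x_at from -0.084 to 0.15. The rise of 1435989_x_at from 1-cell to 2-cell was lost without 2-cell replicate 2 (0.55, adjusted p = 0.0505), under the hybridization controls (0.74, 0.0540), with the constant of 48.6 (0.28, 0.136) and at the 2-fold threshold. With the replicate number as a block 5402, 7698, 8309, 7686 and 10199 probe sets were called at the 4 steps and from oocyte to blastocyst, and no keratin call changed. The numbers do not pair the arrays, since 7 of 20 arrays correlated best with their own number. Signal over background limits Krt19 and the early stages of Krt7, Krt18 and 2 of the Krt8 probe sets.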
